A study of Mus musculus with 6 samples.

Results

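The hair follicle genes described here are 33 genes of the hair shaft, the inner root sheath around it and their regulators, 21 of them keratins. They were chosen by name, and a gene counts as measured where the array annotation gives a probe set its symbol alone. The brightest such probe set over the 6 arrays stands for a gene with several. Of the 33, 31 were measured among 18193 genes in all. The keratin Krt85 and the desmoglein Dsg4 have no such probe set in the annotation used here. The arrays, Affymetrix 3' expression arrays, held RNA from cells of mouse skin tumours, 1 array per mouse. Of the mice, 3 were wild type (WT) and 3 lacked E-FABP, the epidermal fatty acid carrier that Fabp5 encodes (EKO). Below, a WT or EKO tumour means the tumour cells of 1 mouse on 1 array, whether from 1 tumour or several. All 6 mice, WT and EKO alike, received DMBA, which initiates skin tumours by mutation, and the phorbol ester TPA, which drives their growth, over 5 months, so every array comes from a treated mouse and none from untreated skin. The tumours were digested to single cells before RNA was extracted. The sample labels call the cells keratinocytes, and the labels used here give no strain, age or sex.

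A growing hair is built in concentric layers from the matrix cells at the base of the follicle. The inner root sheath, with its own keratins, surrounds and shapes the shaft, which consists of a cuticle, a cortex and often a medulla. Keratins work in pairs of a type I and a type II chain that assemble into intermediate filaments, and in the cortex these filaments are embedded in keratin associated proteins, to which they are cross-linked by disulphide bonds. Matrix and early cuticle keratins such as Krt35 are switched on low in the follicle, while cortex keratins such as Krt34 appear higher up, in cells that have left the matrix. The mouse follicle grows, regresses and rests in cycles, and shaft and inner root sheath are made in the growth phase, under transcription factors that include Lef1, Msx2, Dlx3, Foxn1 and Hoxc13.

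The members varied together over the 6 arrays, and the stretches before their start sites are shown for the 4 with the widest range that have an entry in the RefSeq promoter table (GRCm38.p6, 23 of the 31 measured members matched). Each is the 250 bases before the first listed start, written 5′ to 3′ on the strand of the gene, which is the minus strand for all 4. Capitals mark the TATA box letters TATAAA and the LEF1 letters, CTTTG followed by any pair of A and T bases, searched on both strands. The windows lie at chr11:99374904-99375153 for Krt28, chr11:99337966-99338215 for Krt26, chr15:101786521-101786770 for Krt72 and chr11:100050552-100050801 for Krt31. The first 3 are inner root sheath keratins and Krt31 is a cortex keratin.
Krt28: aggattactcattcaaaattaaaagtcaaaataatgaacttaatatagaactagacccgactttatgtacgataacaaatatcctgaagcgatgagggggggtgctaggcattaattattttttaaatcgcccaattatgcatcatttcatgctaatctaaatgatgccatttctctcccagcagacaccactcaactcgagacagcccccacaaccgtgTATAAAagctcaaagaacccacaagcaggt
Krt26: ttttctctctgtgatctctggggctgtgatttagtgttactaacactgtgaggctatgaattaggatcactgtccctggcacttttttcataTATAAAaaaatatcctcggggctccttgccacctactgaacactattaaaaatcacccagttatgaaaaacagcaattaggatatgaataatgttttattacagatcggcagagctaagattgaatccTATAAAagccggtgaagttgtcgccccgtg
Krt72: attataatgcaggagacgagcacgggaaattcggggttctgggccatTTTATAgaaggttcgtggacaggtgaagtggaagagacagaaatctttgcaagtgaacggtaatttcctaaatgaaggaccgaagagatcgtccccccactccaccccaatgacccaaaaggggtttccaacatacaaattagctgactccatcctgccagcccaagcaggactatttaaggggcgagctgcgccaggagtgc
Krt31: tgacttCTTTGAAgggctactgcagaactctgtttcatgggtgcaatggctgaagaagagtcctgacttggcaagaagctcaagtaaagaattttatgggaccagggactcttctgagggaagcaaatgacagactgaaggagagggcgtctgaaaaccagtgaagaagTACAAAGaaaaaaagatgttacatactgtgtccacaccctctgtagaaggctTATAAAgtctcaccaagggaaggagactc

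TATAAA stood on either strand in the 250 bases of 14 of 23 members (60.9%) and of 13.0% of the 27025 genes in the promoter table. On the strand of the gene and 40 to 20 bases before the start it was present in 8 of 23 members and 2.22% of all genes. Krt28, Krt26 and Krt31 hold it there, at 30, 30 and 29 bases before the start, and Krt72 holds it only on the other strand and farther away. The LEF1 letters were present in 6 of 23 members and 14.9% of all genes, Krt31 being 1 of them. The core letters TTTAT or TTAAT of the HOXC13 motif were present in 20 of 23 members and 48.6% of all genes, and every TATAAA carries TTTAT on its other strand, so these counts overlap. The members include neighbouring genes of the keratin clusters that share ancestry, and a match of letters is no evidence that a factor binds.

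The arrays were alike in their overall level, their medians lying between 5.40 and 5.43 (log2), and pairs of arrays correlated across probe sets with r from 0.988 to 0.994. Fabp5 averaged 14.85 in the WT against 8.16 in the EKO arrays and was the 1 gene of 18193 past an adjusted limma p of 0.05. Krt14, the keratin of basal keratinocytes, lay between 14.66 and 14.80, close to the highest values of the arrays. All values below are RMA values on the log2 scale, which carry no detection calls, and the number of arrays limits their precision. In such bulk samples fewer follicle cells and less RNA per follicle cell cannot be told apart. In all, 21 of the 31 members lay above the upper quartile of every array.

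The 8 inner root sheath and companion layer keratins had the same order of arrays almost throughout, lowest in WT replicate 1 and highest in WT replicate 3. Krt25, a type I keratin of the inner root sheath, read 11.41 in WT replicate 1, 12.97 in replicate 2 and 14.20 in replicate 3, and in the EKO tumours, in the same order, 14.02, 13.77 and 13.15. The 3 WT tumours thus span the whole range, and the EKO tumours lie between them. Krt27, another type I keratin of the sheath, read 10.89, 12.10 and 13.91 in the WT and 13.56, 13.35 and 12.33 in the EKO tumours. Krt28, of the same family, read 8.31, 10.46 and 12.69 in the WT and 12.49, 12.09 and 10.86 in the EKO tumours, a range of 4.38 or 20.9-fold, the widest among all the members. Krt26, known from the cuticle of the sheath, read 8.40, 9.91 and 12.33 in the WT and 11.14, 11.47 and 10.36 in the EKO tumours. In these 4 type I genes every EKO tumour lay above WT replicates 1 and 2 and below WT replicate 3. Krt71, a type II partner expressed in all layers of the sheath, read 8.84, 10.34 and 12.50 in the WT and 11.55, 11.47 and 10.54 in the EKO tumours. Krt72, a type II keratin of the sheath cuticle, read 8.12, 8.95 and 11.80 in the WT and 10.71, 11.35 and 9.95 in the EKO tumours. Krt73, of the same layer, read 8.84, 11.00 and 12.45 in the WT and 12.07, 11.88 and 10.94 in the EKO tumours. EKO replicate 3 lay just below WT replicate 2 in Krt73 alone. Krt75, the type II keratin of the companion layer outside the sheath, read 7.95, 8.12 and 10.59 in the WT and 10.16, 9.66 and 8.89 in the EKO tumours, and its WT replicates 1 and 2 were closer to each other than those of the 7 sheath keratins. The range over the 6 arrays was 2.64 to 4.38 for the 8 genes, with a median of 3.64 beside 0.38 for all genes. Where sheath keratins are counted or scored as a group below, Krt75 is included.

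The 8 cortex keratins were also highest in WT replicate 3, but WT replicates 1 and 2 were both low, and in Krt33a, Krt33b, Krt36, Krt81 and Krt83 they were close together. Krt31, a type I cortex keratin, read 8.28 in WT replicate 1, 9.53 in replicate 2 and 11.94 in replicate 3, and in the EKO tumours, in the same order, 11.32, 11.29 and 10.48. Here WT replicate 2 still stood 1.25 above WT replicate 1. Krt33a, another type I keratin of the cortex, read 10.62, 11.14 and 13.67 in the WT and 12.83, 13.10 and 12.32 in the EKO tumours. Krt33b, its close paralog, read 9.36, 9.37 and 12.22 in the WT and 10.88, 11.55 and 10.83 in the EKO tumours. The 2 probe sets may share signal between such similar genes. Krt34, a type I keratin of the differentiated cortex, read 10.28, 9.24 and 12.84 in the WT and 11.46, 12.33 and 11.37 in the EKO tumours. In Krt34 the order of the low pair is turned, with WT replicate 2 1.04 below WT replicate 1. Krt36 read 7.02, 7.08 and 8.26 in the WT and 8.10, 7.67 and 7.37 in the EKO tumours, the narrowest range of the group. The type II cortex keratins are 3 near-identical neighbours whose probe sets may likewise share signal. Krt81 read 9.60, 9.65 and 12.58 in the WT and 11.50, 11.90 and 11.06 in the EKO tumours. Krt83 read 8.69, 8.84 and 11.79 in the WT and 10.82, 11.29 and 10.11 in the EKO tumours. Krt86 read 9.60, 8.85 and 12.33 in the WT and 11.00, 11.83 and 10.82 in the EKO tumours, with WT replicate 2 the lowest array, as in Krt34. In all 8 cortex keratins the 3 EKO tumours lay between the low WT pair and WT replicate 3, and EKO replicate 2 was the highest of the EKO tumours in 6 of 8.

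Of the 4 measured matrix and cuticle keratins, Krt35, Krt32 and Krt82 had WT replicate 2 well above WT replicate 1, like the inner root sheath keratins, and Krt84 did not. Krt35, a type I keratin of matrix, early cortex and cuticle, read 7.33 in WT replicate 1, 10.16 in replicate 2 and 11.60 in replicate 3, and in the EKO tumours, in the same order, 11.42, 11.03 and 10.04. WT replicate 2 stood 2.83 above WT replicate 1, the widest such gap of all the members, and EKO replicate 3 lay just below WT replicate 2. Krt32, a type I keratin of the cuticle, read 7.09, 8.39 and 10.10 in the WT and 9.73, 9.56 and 9.04 in the EKO tumours. Krt82, its type II partner in the cuticle, read 5.23, 7.29 and 8.78 in the WT and 8.02, 8.21 and 7.86 in the EKO tumours, on a probe set whose suffix marks possible cross-hybridisation. For Krt82 the EKO tumours were nearly alike, with an SD of 0.175 against 1.78 in WT tumours (n = 3 each). Krt84, a hair type keratin known from the tongue papillae, read 7.59, 6.78 and 8.08 in the WT and 7.34, 7.64 and 7.69 in the EKO tumours. Its range of 1.30 was the second narrowest among the members, after Krt36, and its order of arrays differed, WT replicate 2 being lowest.

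The 6 measured genes of other shaft and sheath proteins spanned 2.11 to 4.08 over the arrays, and all but Krtap4-16 were lowest in WT replicate 1. Tchh, which encodes trichohyalin, the granule protein of inner root sheath and medulla, read 11.61 in WT replicate 1, 12.85 in replicate 2 and 13.71 in replicate 3, and in the EKO tumours, in the same order, 13.48, 13.60 and 12.90. Padi3, the deiminase that converts arginines of trichohyalin to citrulline, read 7.67, 8.88 and 11.05 in the WT and 10.50, 10.51 and 9.53 in the EKO tumours. S100a3, a calcium-binding protein of the cuticle and another substrate of that deiminase, read 9.73, 11.75 and 13.30 in the WT and 12.80, 12.64 and 12.04 in the EKO tumours. These 3 shared 1 order of the WT tumours, replicate 1 below 2 below 3, with all EKO tumours between WT replicates 2 and 3. Crym, which encodes mu-crystallin, a thyroid hormone binding protein, read 7.92, 9.43 and 12.00 in the WT and 11.08, 11.14 and 9.88 in the EKO tumours. Gprc5d, an orphan receptor of hard keratinising tissue, read 8.08, 8.29 and 11.49 in the WT and 10.01, 10.54 and 9.69 in the EKO tumours, with WT replicates 1 and 2 close together as in the cortex keratins. Krtap4-16, a keratin associated protein, read 9.94, 9.86 and 12.38 in the WT and 11.80, 12.51 and 11.52 in the EKO tumours. It was 1 of 2 members, with Lef1, in which an EKO tumour exceeded WT replicate 3.

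All 5 regulators were lowest in WT replicate 1, and their ranges of 1.73 to 2.98 had a median of 2.16, beside 3.29 for the 20 keratins. Msx2, a homeobox factor of the hair matrix, read 5.85 in WT replicate 1, 7.02 in replicate 2 and 8.84 in replicate 3, and in the EKO tumours, in the same order, 8.34, 8.15 and 7.48. Hoxc13, a homeobox factor that controls hair keratin genes, read 6.85, 7.82 and 9.01 in the WT and 8.84, 8.87 and 7.87 in the EKO tumours. Foxn1, the gene mutated in the nude mouse, whose hair shafts fail, read 6.17, 6.75 and 7.90 in the WT and 7.80, 7.85 and 7.45 in the EKO tumours. In these 3 the EKO tumours lay above WT replicate 2 and below WT replicate 3. Lef1, a transcription factor of the Wnt pathway in matrix and early cortex, read 6.53, 7.70 and 8.61 in the WT and 8.78, 8.03 and 7.35 in the EKO tumours. Dlx3, a homeobox factor of shaft and sheath, read 6.88, 7.67 and 8.75 in the WT and 8.55, 8.43 and 7.94 in the EKO tumours. Lef1 was highest in EKO replicate 1 and, of the EKO tumours, lay below WT replicate 2 in replicate 3. A dimmer second probe set of Lef1 kept the order of the WT tumours and of the EKO tumours, with 4.20, 5.30 and 6.40 in WT and 6.15, 5.52 and 5.01 in EKO tumours. The second probe sets of Dlx3, Foxn1 and Msx2 were dim and spanned 0.52, 1.10 and 0.56. They did not all repeat the pattern of the brighter probe sets. Those of Foxn1 and Msx2 were lowest in WT replicate 2, at 5.26 and 3.27, and that of Dlx3 had a lower EKO mean (difference -0.07).

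**Figure D1:**
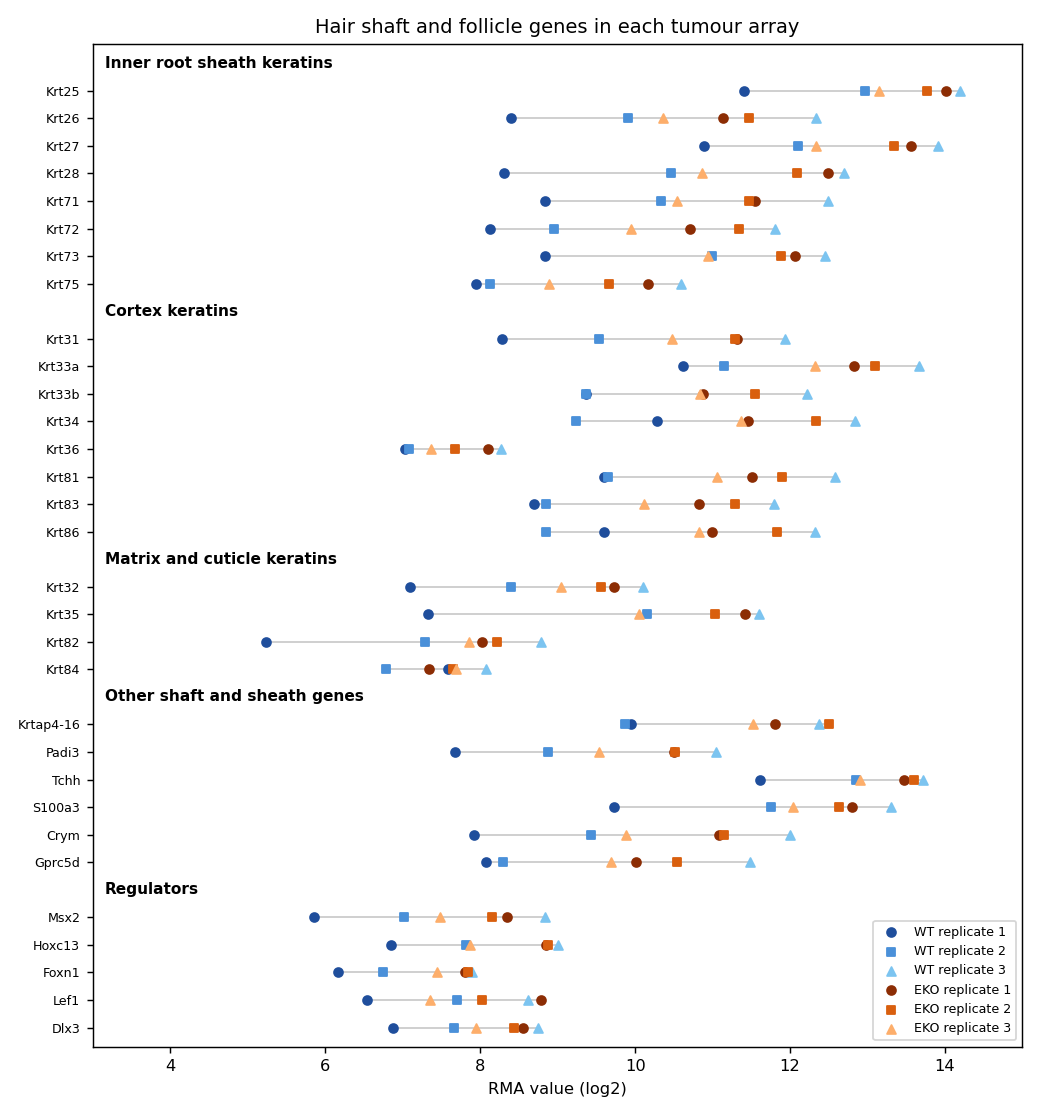
RMA values (log2, horizontal axis) of the 31 measured members in the 6 arrays, 1 row per gene, grouped by layer, with a grey line from the lowest to the highest array. Blue marks are the 3 WT and brown to orange marks the 3 EKO tumours; WT replicate 3 is the highest array in 29 genes and WT replicate 1 the lowest in 27.

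Comparing the genotypes asks whether hair follicle transcripts differ when E-FABP is absent. On the brightest probe set of each gene, all 31 measured members had a higher mean in EKO tumours, with a median difference of 0.87. Of all genes, 50.0% had a higher EKO mean, and the median difference over all genes was 0.00014. None of the members passed the test. The differences ran from 0.075 for Krt84 to 1.33 for Krt28 (SE 1.02, 95% interval -1.08 to 3.73). By limma, 0 of 31 members had an adjusted p under 0.05 (adjusted p from 0.749 to 0.971), where 0.0055% of all genes did. By unadjusted p under 0.05 limma called 0 of 31 members, beside 7.13% of all genes, and the smallest p was that of Foxn1 (0.0992, difference 0.76). The groups did not separate in any member, while they did in 12.0% of all genes. In 29 members all 3 EKO values lay inside the range of the 3 WT values, beside 17.2% of all genes. The 95% interval of every member included 0, and a missed threshold does not show that the genotypes are alike.

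The size of the difference depended on which WT tumour was left out. Without WT replicate 3 the median over the members was 1.75, and 29 of 31 had an unadjusted limma p under 0.05 with a higher EKO mean, beside 5.02% of all genes. The others were Lef1 and Krt84. After adjustment 0 of 31 passed, beside 0.0055% of all genes, with the smallest adjusted p at 0.0914 for Krt81, Gprc5d and Krt33b, whose differences were 1.87, 1.89 and 1.72. Without WT replicate 1 the median was 0.13, and 8 of 31 members had a lower EKO mean. Without WT replicate 2 it was 0.65. Leaving out 1 EKO tumour gave medians of 0.68 to 1.09. The WT group had most of the spread: the SD was larger in WT than in EKO tumours for all 31 members, beside 47.2% of all genes, with medians of 1.71 and 0.511. The members vary together, so these counts are not independent observations.

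**Figure D2:**
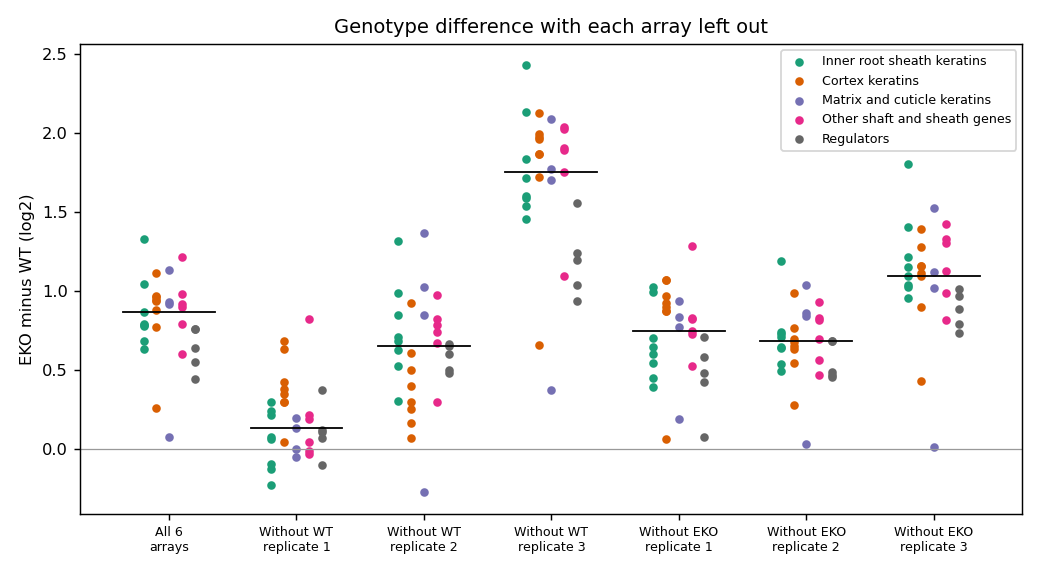
EKO minus WT (log2, vertical axis) of each member with all 6 arrays and with each array left out, coloured by layer, with a black line at the median of the 31 genes. The median is 0.87 with all arrays, 0.13 without WT replicate 1 and 1.75 without WT replicate 3.

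Scores, which average over a group of genes how far each gene lies from its own 6-array mean, summarise each layer in each tumour. For the inner root sheath keratins the scores of WT replicates 1 to 3 were -2.05, -0.66 and 1.42, and those of EKO replicates 1 to 3 were 0.82, 0.74 and -0.26. For the cortex keratins the scores were -1.36, -1.33 and 1.41 in WT and 0.45, 0.83 and 0.00356 in EKO tumours. WT replicate 2 was therefore as low as WT replicate 1 in the cortex and well above it in the sheath. The matrix and cuticle keratins scored -1.77, -0.43 and 1.06 in WT and 0.54, 0.53 and 0.074 in EKO tumours. The regulators scored -1.35, -0.41 and 0.82 in WT and 0.66, 0.46 and -0.18 in EKO tumours. The other shaft and sheath genes scored -1.84, -0.82 and 1.32 in WT and 0.61, 0.82 and -0.078 in EKO tumours. The difference of the group means was 0.86 for the sheath keratins, 0.85 for the cortex, 0.76 for matrix and cuticle, 0.63 for the regulators and 0.90 for the other genes. In each of the 5 groups this was less than the SD of the WT tumours, which ran from 1.09 for the regulators to 1.74 for the sheath keratins. With 1 array left out the difference of the scores ran from 0.053 to 1.79 for the sheath keratins, 0.39 to 1.77 for the cortex and 0.068 to 1.48 for matrix and cuticle. It ran from 0.11 to 1.19 for the regulators and 0.20 to 1.78 for the other genes, lowest without WT replicate 1 and highest without WT replicate 3 in each of the 5 groups.

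Among the WT tumours the layers differed in how replicates 1 and 2 compared. WT replicate 2 exceeded WT replicate 1 in 8 of 8 sheath keratins, by a median of 1.51. It did so in 6 of 8 cortex keratins, by a median of 0.053. Krt75 of the companion layer, counted here with the sheath, had the smallest gap of the 8, at 0.17. The gap between WT replicates 3 and 2 was smaller in the sheath, with medians of 2.19 for the sheath and 2.89 for the cortex. It shares WT replicate 2 with the gap between replicates 2 and 1, so it is no separate contrast. From WT replicate 1 to WT replicate 3 the medians were 3.64 for the sheath and 2.92 for the cortex. Krt35 and Krt34 were the extremes within the type I hair keratins: from WT replicate 1 to WT replicate 2 the early matrix keratin Krt35 differed by 2.83 and the cortex keratin Krt34 by -1.04. The layers were not cleanly apart, as the type I keratins Krt31 of the cortex and Krt32 of the cuticle differed by 1.25 and 1.30. In the EKO group, replicate 3 was the lowest: replicate 1 exceeded it in 30 and replicate 2 in 30 of 31 members. EKO replicate 1 exceeded EKO replicate 2 in 6 of 8 sheath keratins and 2 of 8 cortex keratins. Each replicate is 1 array of 1 mouse, so the contrasts between layers are descriptions with no test.

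**Figure D3:**
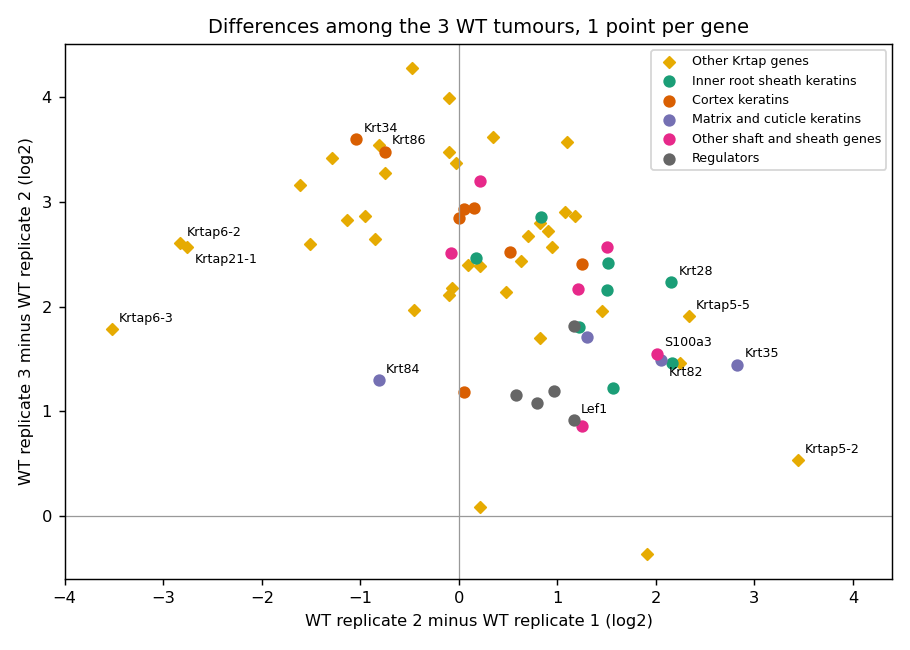
Differences among the WT tumours (log2), WT replicate 2 minus 1 on the horizontal and WT replicate 3 minus 2 on the vertical axis, 1 point per gene, coloured by layer and with diamonds for the other keratin associated protein genes. Sheath keratins lie right of 0, Krt35 lies farthest right among the members at 2.83, and most cortex keratins lie near 0, with Krt34 at -1.04; Krtap6-3 lies farthest left at -3.52. Krt84, grouped with the matrix and cuticle keratins, lies at -0.81.

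The keratin associated proteins are the matrix of the cortex and cuticle, and 37 of their genes other than Krtap4-16 were measured. All 37 had a higher mean in EKO tumours, beside 50.0% of all genes, with a median difference of 0.99. Krtap13, which lay below the median of every array, differed by only 0.0023. By the adjusted limma test 0 of 37 passed, beside 0.0055% of all genes. By unadjusted limma p under 0.05 1 of 37 was called, Krtap4-1, beside 7.13% of all genes. Without WT replicate 3 the list's median was 1.92 and 31 of 37 had an unadjusted limma p under 0.05 with a higher EKO mean, beside 5.02% of all genes, and 0 passed after adjustment. Without WT replicate 1 the median was 0.65 and 7 of 37 had a lower EKO mean, and without WT replicate 2 these were 0.63 and 3. Krtap4-1, of the family that includes Krtap4-16, read 10.26, 10.16 and 12.27 in the WT and 12.39, 12.71 and 11.71 in the EKO tumours (difference 1.37, SE 0.565, adjusted p = 0.696). All EKO values of Krtap4-1 lay above WT replicates 1 and 2, and 2 of them lay above WT replicate 3. Krtap31-1 read 6.50, 6.98 and 9.11 in the WT and 8.65, 9.07 and 9.10 in the EKO tumours, with a difference of 1.41. Krtap8-1 and Krtap22-2, the genes of the list with the highest means, had differences of 0.74 and 0.96. Over the list the score was -1.34, -1.30 and 1.21 in WT and 0.36, 0.82 and 0.26 in EKO tumours, the order of the cortex keratins. In all, 34 of 37 spanned at least 2 on the log2 scale over the 6 arrays, as did 27 of 31 members and 1.56% of all genes. Of the 100 genes with the widest range, 14 were members and 21 were other Krtap genes.

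Families of these proteins differed from each other between WT replicates 1 and 2, a pattern noticed after the values were seen. All 5 measured Krtap5 genes, which encode ultra-high-sulphur proteins, were higher in WT replicate 2, by a median of 1.91. Krtap5-2 read 5.09, 8.53 and 9.06 in the WT and 7.64, 8.01 and 8.13 in the EKO tumours. Krtap5-5 read 4.78, 7.11 and 9.02 in the WT and 8.08, 8.17 and 7.50 in the EKO tumours. All 3 measured Krtap6 genes, which encode proteins rich in glycine and tyrosine, were lower in WT replicate 2, with a median difference of -2.83. Krtap6-3 read 10.67, 7.14 and 8.93 in the WT and 8.61, 9.33 and 10.85 in the EKO tumours. Krtap6-2 read 10.31, 7.48 and 10.08 in the WT and 9.37, 10.01 and 10.40 in the EKO tumours. Krtap21-1, of a related family, read 10.89, 8.13 and 10.70 in the WT and 9.68, 10.28 and 11.09 in the EKO tumours. In Krtap6-3, Krtap6-2 and Krtap21-1 EKO replicate 3 was the highest array and WT replicate 1 the second highest. Both were among the low arrays of the sheath keratins. The remaining Krtap6 gene, Krtap6-5, did not share this order, with EKO replicate 2 highest. It read 11.94, 10.42 and 13.02 in the WT and 12.60, 13.09 and 12.66 in the EKO tumours. The Krtap4 and Krtap19 families lay between, with medians of -0.078 over 5 genes, Krtap4-16 included, and 0.13 over 6. Over the 37 Krtap genes other than Krtap4-16, WT replicate 2 exceeded WT replicate 1 in 19. Genes of other families went either way, such as Krtap28-13 by 2.24 and Krtap22-2 by -1.61, so neither direction was particular to Krtap5 or Krtap6. Genes of 1 family are close in sequence and their probe sets may share signal, so they are not separate observations.

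Signals and other factors of follicle growth varied far less than the shaft genes. Of 26 listed genes 15 had higher and 11 lower means in EKO arrays, the median difference was 0.054, and the median range was 0.52. None passed the adjusted limma test, and 1 of 26 had an unadjusted limma p under 0.05, beside 7.13% of all genes. That gene was Fgf7, the keratinocyte growth factor (difference -0.34, limma adjusted p = 0.66). Trps1, a zinc finger factor of hair growth, had a difference of 0.50. Shh, the hedgehog ligand made by the matrix of growing follicles, was the 1 gene of the list with a range of at least 2. It read 4.31, 7.36 and 7.92 in the WT and 8.33, 7.01 and 6.86 in the EKO tumours, lowest in WT replicate 1 by 3.05 against WT replicate 2. Gli1 and Ptch1, target genes of hedgehog signalling, had the WT order of the sheath keratins, at 5.15, 5.70 and 6.80 for Gli1 and 8.64, 9.07 and 9.94 for Ptch1 in replicates 1, 2 and 3. That order was not particular to hedgehog genes. WT replicate 2 exceeded WT replicate 1 in 19 of the 26 genes, beside 8109 of all 18193. WT replicate 3 exceeded WT replicate 2 in 17 of the 26, beside 8762 of all genes. Shh, Gli1 and Ptch1 were named after their values were seen.

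Markers of other cells that a digested skin tumour can hold were read beside the hair genes. Of 8 melanocyte markers, which in growing follicles come from pigment cells of the bulb, 6 spanned at least 2 over the arrays, and the other two were Sox10 (range 0.38) and Slc45a2 (range 0.47). Tyr, which encodes tyrosinase, read 4.84, 7.18 and 8.59 in the WT and 8.42, 7.29 and 6.41 in the EKO tumours. Tyrp1 and Dct, enzymes of the same pigment pathway, had ranges of 2.92 and 2.34. The list scored -1.35, 0.0014 and 0.90 in WT and 0.87, 0.14 and -0.56 in EKO tumours, so that WT replicate 1 was lowest and WT replicate 3 highest, as in the sheath keratins. In Tyr, Tyrp1 and Dct, EKO replicates 1 and 2 also lay between WT replicates 2 and 3. EKO replicate 3 lay below WT replicate 2 in these genes, as it did in Krt73 and Krt35. All 3 EKO tumours lay between WT replicates 2 and 3 in 0 of 8 melanocyte markers and in 7 of 8 sheath keratins. All 3 lay inside the WT range in 5 of 8 melanocyte markers and in 8 of 8 sheath keratins. Skeletal muscle markers had another order: all 8 were highest in WT replicate 1 and 8 of 8 had a lower EKO mean. Acta1, skeletal muscle actin, read 11.42, 7.28 and 9.81 in the WT and 9.09, 8.22 and 7.44 in the EKO tumours, and the list scored from -1.13 to 2.20 in WT and from -1.03 to 0.23 in EKO tumours. WT replicate 1, lowest in the sheath keratins, thus had the highest muscle score, while WT replicate 2, as low as WT replicate 1 in the cortex keratins and Krtap genes, had the lowest muscle score of the 6 arrays. The part of other tissue in the hair gene values was not tested.

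Epidermal, bulge, dermal papilla, sebaceous, leukocyte, fibroblast and endothelial markers had no gene with a range of at least 2. The 8 epidermal markers scored between -0.15 and 0.15 in WT and between -0.14 and 0.16 in EKO tumours. Of 8 bulge and outer root sheath markers 2 were lower in every EKO than in every WT tumour, Nfatc1 (difference -0.49, adjusted p = 0.629) and Krt17 (-0.26, adjusted p = 0.662), beside 12.0% of all genes with separate groups. The 7 dermal papilla markers had a median difference of -0.10, with Prom1 at -0.44, and the 5 measured sebaceous markers one of -0.33. The median was -0.08 for 7 leukocyte and -0.12 for 8 fibroblast and endothelial markers, which went both ways. Among these, Dcn, the fibroblast proteoglycan decorin, had a difference of -0.90 (limma adjusted p = 0.625). Kdr, an endothelial receptor, had one of 0.42 with all EKO above all WT arrays (limma adjusted p = 0.623). Of a list of 10 other keratins, of the epidermis and its appendages, 8 were measured, with a median range of 0.54, and 5 had an unadjusted limma p under 0.05, beside 7.13% of all genes. Of these 5, 4 had a lower and 1 a higher EKO mean, and 1 of them is Krt17, also counted among the bulge markers. Krt77 read 7.88, 8.05 and 7.99 in the WT and 9.35, 10.59 and 9.29 in the EKO tumours. Krt24 read 6.99, 6.44 and 6.08 in the WT and 5.22, 5.50 and 5.55 in the EKO tumours. Both genes had groups that do not overlap, and neither passed the adjusted limma test with all arrays (adjusted p = 0.546 for both). Krt77 passed without EKO replicate 2, its highest array (difference 1.34, limma adjusted p = 0.0107). In that setting 42 genes passed over all genes.

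**Figure D4:**
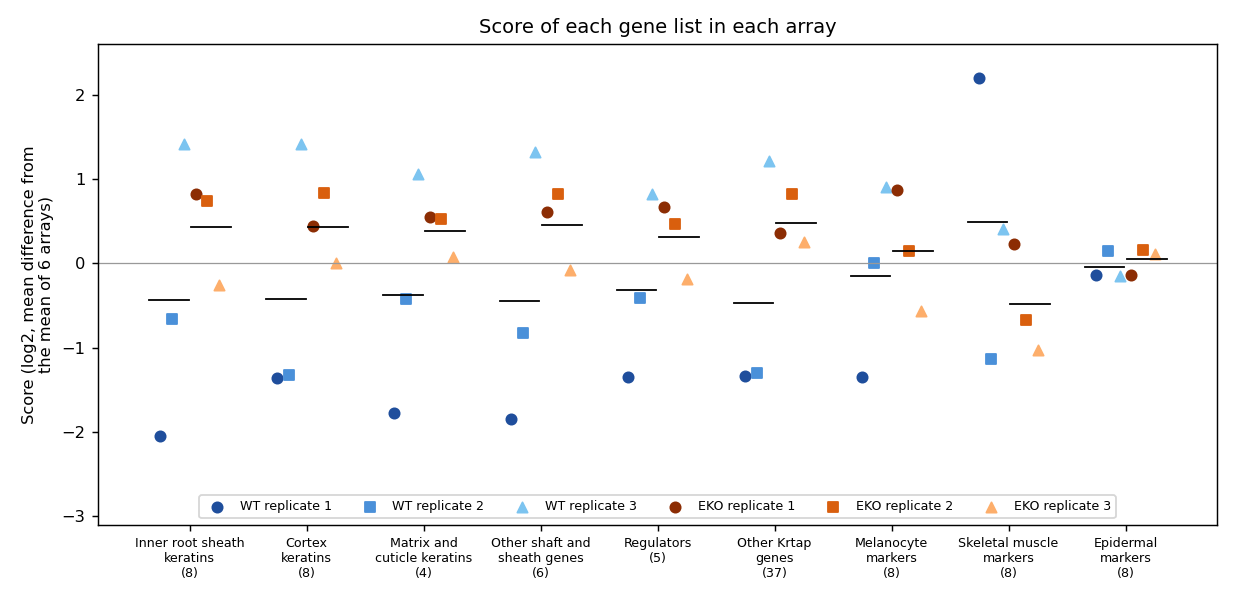
Score of each gene list (log2, average over its genes of the distance from each gene's 6-array mean) in each array, with a black line at each group's mean and the number of genes in brackets. The hair lists are lowest in WT replicate 1, with WT replicate 2 as low in the cortex and Krtap lists, and highest in WT replicate 3; the muscle list is highest in WT replicate 1 (2.20), and the epidermal list lies within 0.15 below and 0.16 above 0.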

How the data were processed

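Gene expression was measured in tumour cells of 6 mice, 3 WT and 3 EKO, on Affymetrix 3' arrays with biotinylated cRNA, per the labels' protocols. The deposited values are on a log2 scale. The submitters' processing notes name RMA and Partek 6.6 for the authors' processing. RMA corrects background, normalizes quantiles between arrays and summarises probe sets, which narrows differences near the floor. Batches were not analysed here. The titles, which describe biological replicates, gave groups and replicate numbers.

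Of 45101 probe sets, 64 controls, 932 with several symbols and 9160 unnamed here were left out, and 18193 genes remained, each represented by its brightest probe set. EKO minus WT was fitted over all genes with limma 3.58.1 in R 4.3.3 (two-sided, Benjamini-Hochberg over all genes, threshold 0.05). Members, layers, lists and alternatives were chosen with earlier results of these data known. Named genes were the members, up to 4 genes of each other list by smallest p and up to 2 by highest mean. Others are said to be chosen after their values were seen or stand as examples of a family. Same-numbered WT and EKO arrays were not paired in the main fit. The correlations of their deviations from the group means were -0.0741, -0.0887 and -0.34, and those of differently numbered arrays ran from -0.19 to 0.26. With 3 arrays per group these values cannot show whether same-numbered arrays were handled together. Promoter sequences came from a RefSeq table. Alternatives were a replicate block, the upper 50% of means, centred medians, repeated quantile normalization, an intensity trend, array weights, a mean over probe sets and each array left out. On simulated data with the 18193 genes the fit recovered 76.8% of genes changed by 1 and 95.8% of those changed by 2, with 5.4% of calls false. These shares are over all genes, whose median residual SD was 0.14, and do not describe the members, whose spread was far larger (median WT SD 1.71).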

Additional observations from a re-analysis of the deposited data

How the results depend on the processing

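In the 7 settings that keep all arrays, the 217 differences of the members kept their direction and stayed above the threshold (adjusted limma p from 0.586 to 0.975). The replicate block left the members at 0 past the threshold and a median of 0.87 (adjusted p from 0.854), and changed no other call. Array weights raised the median to 1.11, with 2 members, Krtap4-16 and Foxn1, at an unadjusted limma p under 0.05. The mean over probe sets lowered the regulators' median from 0.64 to 0.41. With 1 array left out, 9 of 186 differences changed sign, all without WT replicate 1 or WT replicate 2. Over the arrays left out the differences ran as Krt26 -0.13 to 1.84, Krt71 -0.23 to 1.60, Krt73 -0.0982 to 1.71, Krt35 -0.0502 to 2.09, Krt82 -0.00231 to 1.77, Krt84 -0.28 to 0.37, Lef1 -0.10 to 0.94, S100a3 -0.0323 to 1.75 and Crym -0.0163 to 2.02, and among other named genes as Krtap6-2 -0.27 to 1.15, Krtap6-3 -0.20 to 1.56, Krtap21-1 -0.44 to 0.93, Krtap5-2 -0.87 to 1.12, Krtap5-5 -0.15 to 1.97, Shh -0.24 to 1.56, Ptch1 -0.17 to 0.47, Gli1 -0.13 to 0.70, Tyr -0.51 to 1.36, Tyrp1 -0.26 to 1.20, Dct -0.34 to 0.83, Sox10 -0.11 to 0.0799 and Slc45a2 -0.21 to 0.0384. With all arrays kept, Krt14 changed sign under quantile normalization repeated (0.0181), Sox10 changed sign under array weights (0.0213), Slc45a2 changed sign under mean over probe sets (0.0275). The number of genes past the threshold over all genes ran from 1 to 42, with 2 without WT replicate 2 and 42 without EKO replicate 2, where no member passed. Among other follicle, keratin and Krtap genes it ran from 0 to 1, the latter being Krt77. The cause of these changes was not tested. RMA values near the floor are compressed and carry no detection calls, and 3 arrays per group limit every estimate.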
